A study of Mus musculus with 6 samples.

Results

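Imprinted genes are transcribed mainly from 1 of the parental alleles, and 36 of them, all those listed for this comparison other than Plagl1, were followed in the RNA of mouse oocytes. The members were taken by symbol from GENCODE M21, and all 36 matched a single row among the 55487 genes of the deposited table. By the allele that is active in embryonic or adult tissue, 13 belong to the maternal class and 23 to the paternal class. Where the imprint depends on the tissue, the member was placed by its best-known allele: Ube3a is imprinted in neurons and Gnas in some endocrine tissues, and Grb10, maternal in most tissues, is expressed from the paternal allele in neurons.

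The RNA came from 3 libraries labelled control and 3 labelled metformin, a biguanide used against type 2 diabetes. Per the labels, all females were primed with 10 IU of PMSG, an equine gonadotropin, and after 46 to 48 h germinal-vesicle oocytes were freed of cumulus cells and cultured in M16 medium, with or without the drug, for 16 h until metaphase II. The series title gives the source as aged mice; age, strain and the number of oocytes in a library are not given in the labels. The protocol lists metformin at 10, 20 and 50 μM and does not say which of these the sequenced oocytes received. No genotype or transgene is named, and both groups share the hormone treatment and the culture.

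Genomic imprints are laid down in the germ line. At most imprinted clusters a CpG-rich control region is methylated in the growing oocyte, often under the passage of transcription from an upstream oocyte start, and a few clusters are marked in sperm instead. After fertilization the zinc-finger protein ZFP57, which binds the methylated hexamer TGCCGC, helps to keep the mark. An unfertilized oocyte holds maternal chromosomes alone, so its RNA cannot show which parental allele is used. What is measured here is RNA that carried a poly(A) tail after the culture, since the library kit primes on such tails. A transcript made during growth but lost, or without a tail, by then would not be seen. In bulk samples fewer oocytes and less RNA per oocyte cannot be told apart.

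The libraries held between 8622281 and 10588292 counted reads, so that 3 reads, taken as the floor, equalled 0.283 to 0.348 counts per 1000000 counted reads. Levels in CPM are counts per 1000000 on library sizes scaled by TMM, edgeR's correction for library composition. Of 10 oocyte markers, 9 had at least 10 counts in every library, and their summed level ranged from 16573 to 18612 CPM. The granulosa markers Amh and Foxl2 had 0 counts in every library, while the list of 11 cumulus and granulosa markers summed to between 48.9 and 61.0 CPM, mainly Cyp19a1. Kitl of that list had 78 to 109 counts per library. Haemoglobin genes (Hba-a1, Hba-a2, Hbb-bs and Hbb-bt) had 281 reads in control replicate 1 and at most 2 elsewhere, and the collagen genes Col1a1 and Col1a2 had 45 there and at most 4 elsewhere. Their part in the results was not tested. The 8 blood and immune markers summed to 33.9 CPM there and to between 1.38 and 3.10 CPM elsewhere. The 9 markers of stroma, theca and endothelium summed to between 26.2 and 37.6 CPM over all libraries. Most of this was Pecam1, with 230 to 365 counts per library, while Cdh5, also endothelial, had at most 3.

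Sequences at the starts of 4 paternal-class members are shown because these starts lie at textbook regions of oocyte methylation and because the members ended up at opposite ends of the range of levels. Mest and Snrpn were the most abundant members per length, whereas Nnat was not read at all and Mcts2 barely. Each window runs from 250 bases before to 50 bases after the RefSeq start on GRCm38.p6, 5′ to 3′ on the gene's strand, with the hexamer TGCCGC or its reverse complement GCGGCA in capitals. For Mest the upstream start is shown as well, since counts per gene do not say which start a transcript came from.
Mest, upstream start (chr6:30733256-30733555, plus strand): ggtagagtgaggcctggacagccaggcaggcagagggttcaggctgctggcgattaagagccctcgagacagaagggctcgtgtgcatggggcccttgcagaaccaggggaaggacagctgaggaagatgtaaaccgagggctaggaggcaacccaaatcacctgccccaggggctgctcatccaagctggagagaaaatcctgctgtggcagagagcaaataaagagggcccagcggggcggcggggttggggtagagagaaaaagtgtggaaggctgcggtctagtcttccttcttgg
Mest, CpG-rich start (chr6:30737800-30738099, plus strand): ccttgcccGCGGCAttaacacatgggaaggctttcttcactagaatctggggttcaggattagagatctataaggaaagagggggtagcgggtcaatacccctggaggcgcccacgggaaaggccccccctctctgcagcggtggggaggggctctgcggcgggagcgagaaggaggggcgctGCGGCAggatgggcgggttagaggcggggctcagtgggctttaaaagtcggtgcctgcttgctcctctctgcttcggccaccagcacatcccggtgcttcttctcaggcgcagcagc
Snrpn (chr7:60005150-60005449, minus strand): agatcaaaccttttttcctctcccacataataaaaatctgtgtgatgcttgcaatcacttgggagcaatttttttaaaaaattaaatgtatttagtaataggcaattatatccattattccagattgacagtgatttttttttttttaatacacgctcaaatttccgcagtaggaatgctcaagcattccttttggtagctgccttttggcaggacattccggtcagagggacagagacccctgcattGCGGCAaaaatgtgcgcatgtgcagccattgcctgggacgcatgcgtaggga
Nnat (chr2:157559828-157560127, plus strand): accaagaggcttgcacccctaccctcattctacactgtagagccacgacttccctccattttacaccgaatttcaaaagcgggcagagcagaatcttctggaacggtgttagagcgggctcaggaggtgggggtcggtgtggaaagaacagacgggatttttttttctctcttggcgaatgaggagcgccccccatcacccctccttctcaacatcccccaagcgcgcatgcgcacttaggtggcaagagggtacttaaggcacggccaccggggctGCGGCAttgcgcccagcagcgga
Mcts2 (chr2:152686898-152687197, plus strand): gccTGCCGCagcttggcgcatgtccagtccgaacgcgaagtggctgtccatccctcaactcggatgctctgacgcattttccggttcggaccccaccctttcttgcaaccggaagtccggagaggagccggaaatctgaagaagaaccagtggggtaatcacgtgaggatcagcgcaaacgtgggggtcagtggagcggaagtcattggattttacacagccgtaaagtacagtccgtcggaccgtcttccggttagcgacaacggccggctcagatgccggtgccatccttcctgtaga

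The CpG-rich Mest window held 2 matches and 17 CG dinucleotides, and its upstream window held 0 matches and 8 CG dinucleotides. Snrpn, Nnat and Mcts2 had 1 match each in the windows shown, with 7, 17 and 25 CG dinucleotides. Snrpn windows further upstream, starting at 60047929, 60140176 and 60450128, held 0 matches and 4, 3 and 2 CG dinucleotides. For Snrpn too, the counts do not say which start a transcript came from. RefSeq windows were found for 28 of the 36 members, 44 windows in all. Of these, 10 (22.73%) held the hexamer on either strand, against 11.61% of the 32851 windows of all genes. The 10 are not separate sites: Mest windows starting at 30737800 and 30737803 overlap and share the same 2 matches. The windows of members had a median of 14.5 CG dinucleotides and those of all genes 7.0. The share with the hexamer was 20.83% for the 24 windows of members that were present in oocytes, as defined next, 30.0% for the 10 windows of intermediate members and 20.0% for the 10 windows of members at or under the floor.

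A member was called present when every library held at least 10 counts, and at or under the floor when no library held more than 3. On this rule 18 of the 36 members were present, 9 were intermediate and 9 were at or under the floor. The present members were 9 of 13 in the maternal class and 9 of 23 in the paternal class. These are counts per gene and not of imprinted transcripts. Among the paternal 9, Kcnq1ot1 reads cannot be told apart from unspliced Kcnq1 RNA, and the imprinted transcript of Inpp5f was not counted separately. Airn reads inside Igf2r and Zrsr1 reads inside Commd1 likewise cannot be assigned by strand. Among the maternal 9, the imprint of Ube3a, Grb10, Gnas, Copg2 and H13 depends on tissue or isoform, and isoforms were not separated. The same rule was met by 43.15% of all protein-coding genes and by 20.25% of all genes in the table, beside 50.0% of the members. With a threshold of at least 1 deposited FPKM in every library, 11 members were present, 7 maternal and 4 paternal. These were 30.56% of the members, beside 28.26% of all protein-coding genes and 14.49% of all genes in the table.

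All 18 present members belong to clusters whose control region is methylated in the oocyte, which hold 29 of the 36 members. None of the 6 members of the sperm-marked clusters H19-Igf2, Dlk1-Meg3 and Rasgrf1 was present. This holds for the listed members and not for every gene of these regions. Of the further genes treated below, Ins2 and Th, near Igf2, were present, with 24 to 54 and 330 to 400 counts per library. Dio3, Rian and Mirg, near Dlk1 and Meg3, were not, with at most 6, 4 and 1 counts. H19, the maternal-class growth-restraining RNA, had 1 read in all, in control replicate 1, the library with the haemoglobin and collagen reads. Igf2, the paternal-class fetal growth factor, had 2 reads, both in control replicate 3. Meg3, a maternal-class long non-coding RNA, had between 0 and 4 reads per library. The signalling regulator Dlk1 and the retrotransposon-derived Rtl1 of the same cluster had 0 reads throughout, and Rasgrf1, a RAS exchange factor gene, had 0 to 2. Igf2 shares 62.8% of its exon bases with the overlapping gene Gm49394. Reads of Igf2, Gm49394 and the antisense gene Igf2os together numbered 9, 9 and 10 in the control libraries and 5, 4 and 3 in the metformin libraries, below the filter for testing.

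The remaining members at or under the floor were all of the paternal class. Nnat, a membrane protein gene that lies inside Blcap, had 0 reads in each library, while its host Blcap, on the other strand, had 1028 to 1417. Magel2 and Mkrn3 of the Prader-Willi cluster also had 0 reads, and their neighbour Ndn had 0 to 3. Zero reads in a library of these sizes allows up to 0.283 to 0.348 counts per 1000000 counted reads, for counting error only.

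The 9 intermediate members were read in small numbers. Zim1, a maternal-class zinc-finger gene next to Peg3, had 7 to 14 reads per library, and Ascl2, a trophoblast transcription factor gene, had 0 to 13. The retrotransposon-derived placental gene Peg10 had 2 to 14 reads, and Sgce, the sarcoglycan gene that starts 99 bases away on the other strand, had 0 to 5. Nespas, the paternal-class antisense RNA of the Gnas cluster, had 0 to 4. The amino acid transporter gene Slc38a4 had reads in metformin replicate 3 alone, which held 4. Sfmbt2, a Polycomb-related gene whose imprint rests on a histone mark from the oocyte, had 0 to 5. Mcts2, a retrogene on the same strand within an intron of H13, had 0 to 4 and aligned to its parent Mcts1 at 84.0% identity over 674 bases.

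**Figure D1:**
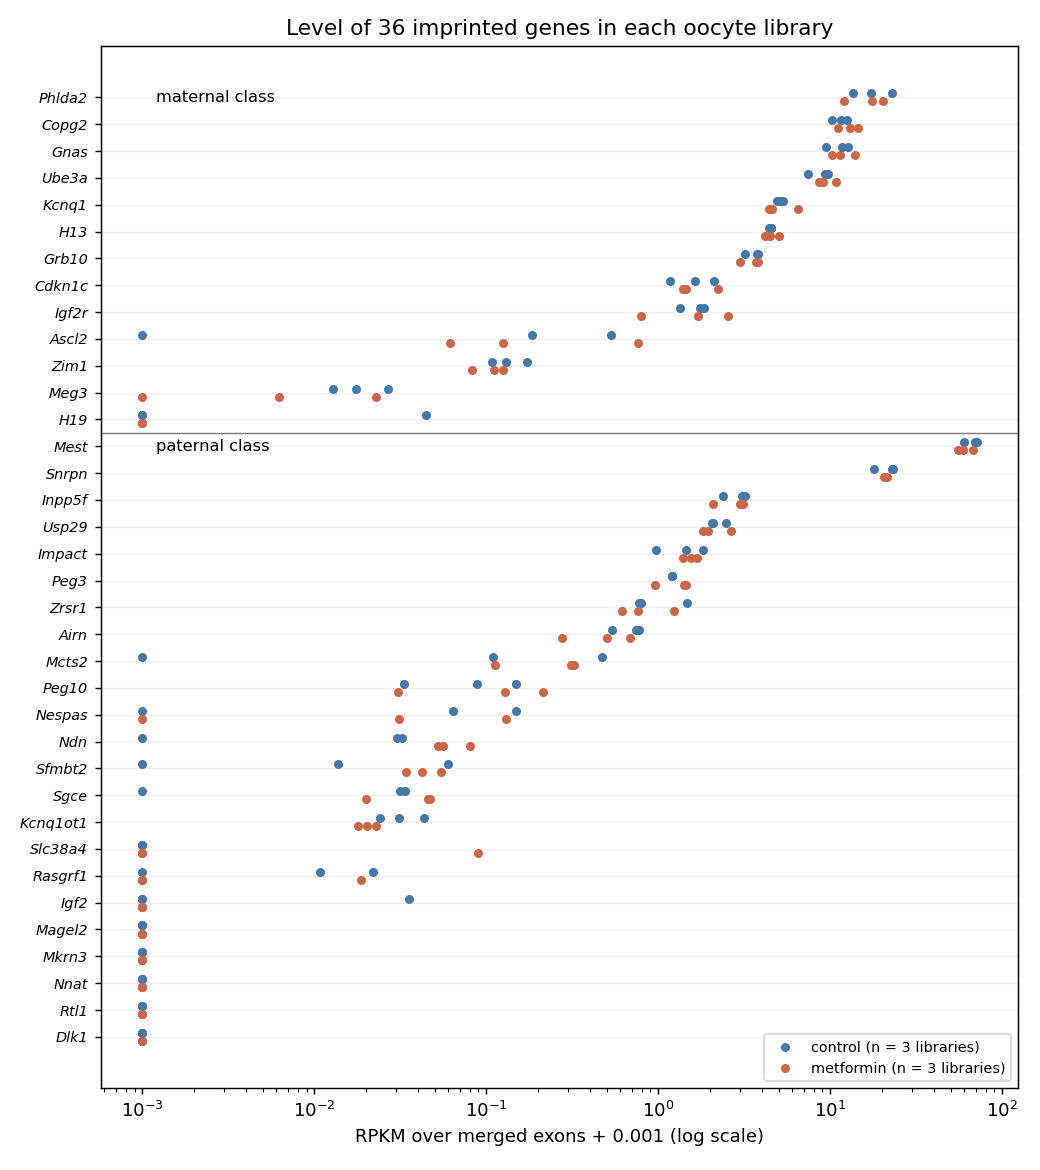
Counts per 1000000 counted reads and kilobase of merged exons (RPKM) plus 0.001, on a log axis, for all 36 imprinted genes in each control (blue) and metformin (orange) library, split by parental class; points at the left edge are libraries with 0 reads. Mest stands highest at 55.4 to 70.9 RPKM, and the points of the 2 groups are interleaved for most genes.

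Levels of different genes were compared per length, as counts per 1000000 counted reads and kilobase of merged exons (RPKM). Mest, a hydrolase-like gene of the mesoderm, stood at 63.7 ± 6.27 RPKM (SD, n = 6), at percentile 93.4 of the mean RPKM of all tested genes. Snrpn, which encodes a spliceosomal protein, followed at 21.1 ± 1.87 RPKM, and Phlda2, a placental growth inhibitor of the maternal class, at 17.3 ± 4.02 RPKM. Copg2, Gnas and Ube3a stood at 12.1 ± 1.51, 11.6 ± 1.64 and 9.14 ± 1.12 RPKM. The ranges of Snrpn, Phlda2, Copg2, Gnas and Ube3a each overlapped with the next in this order. Within each single library, however, Snrpn stood above Phlda2 and Gnas above Ube3a. The order of Phlda2 and Copg2, and of Copg2 and Gnas, varied between libraries. A gap without overlap separated Mest from Snrpn, Ube3a from Kcnq1, H13 from Grb10, and Airn from Kcnq1ot1.

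The potassium channel gene Kcnq1 stood at 5.12 ± 0.734 RPKM, the signal peptide peptidase gene H13 at 4.52 ± 0.289, Grb10 at 3.53 ± 0.351 and Inpp5f at 2.81 ± 0.459 RPKM (SD, n = 6). Between 2.17 and 0.939 RPKM came Usp29, Cdkn1c, Igf2r, Impact, Peg3 and Zrsr1, each overlapping with the next. The antisense RNAs were last per length: Airn stood at 0.585 ± 0.187 RPKM and Kcnq1ot1, annotated as a single exon of 93092 bases, at 0.0256 ± 0.00939 RPKM. The merged exons of Airn hold only 3597 bases. In reads both were alike, with 123 for Airn and 139 for Kcnq1ot1 over all libraries. The 36 members together held 53122 reads, 0.0905% of all counted reads, and Mest alone gave 27.6% of them.

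The deposited FPKM values give the same order for the 10 most abundant members but smaller levels. The length behind an FPKM value, worked out from the count, matched the sum of all distinct annotated exons within 1% for 97.8% of 12631 genes, and the merged exon length for 20.9%. Overlapping exons of alternative transcripts are thus counted more than once in that sum. The ratio of the summed to the merged length was 2.54 for Cdkn1c, 2.02 for Zrsr1, 1.97 for Airn and 1.79 for Mest, against 1.03 for Igf2r. Cdkn1c ranked 12th by RPKM and 15th by FPKM, and Igf2r 13th and 11th.

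**Figure D2:**
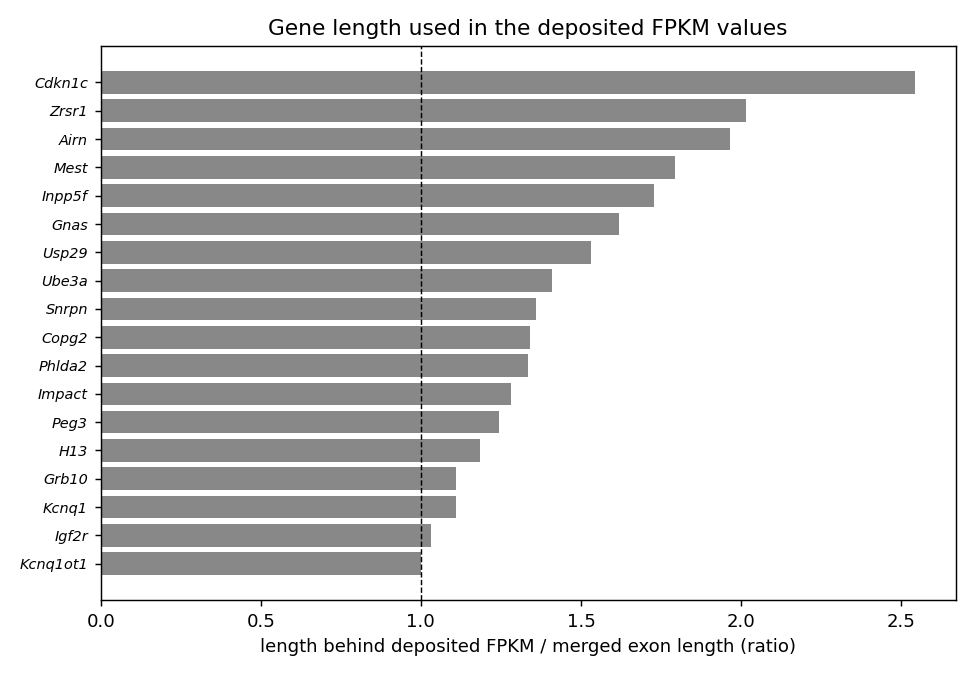
Ratio of the gene length implied by the deposited FPKM to the merged exon length in GENCODE M21, for the 18 present members (bars from 0; dashed line at a ratio of 1). Cdkn1c has the largest ratio, 2.54, and Kcnq1ot1, with a single exon, has a ratio of 1.00.

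The comparison of metformin with control asked whether the poly(A)-tailed transcripts of imprinted genes differed after maturation with the drug. Tested by edgeR's quasi-likelihood method with Benjamini-Hochberg adjustment over all 12793 genes, the comparison reached 19 members: the 18 present ones and Zim1. Of these, 0 passed the adjusted threshold of 0.05, where 0.0391% of all genes did (0.0235% higher and 0.0156% lower with metformin), and the smallest adjusted p among members was 1.00. At an unadjusted p under 0.05 there were 0 members by edgeR, against 1.5% of all genes (0.883% higher and 0.618% lower). DESeq2 called 0 of them at the same adjusted threshold, where it called 0.0308% of the genes it tested. The log2 fold changes, metformin against control, ran from -0.72 to 0.18, with 9 fitted higher and 10 lower. Their median was -0.01, beside 0.01 over all genes tested. The 95% interval lay within a log2 fold change of -1 to 1 for 16 of the 19, the exceptions being Kcnq1ot1, Airn and Zim1.

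**Figure D3:**
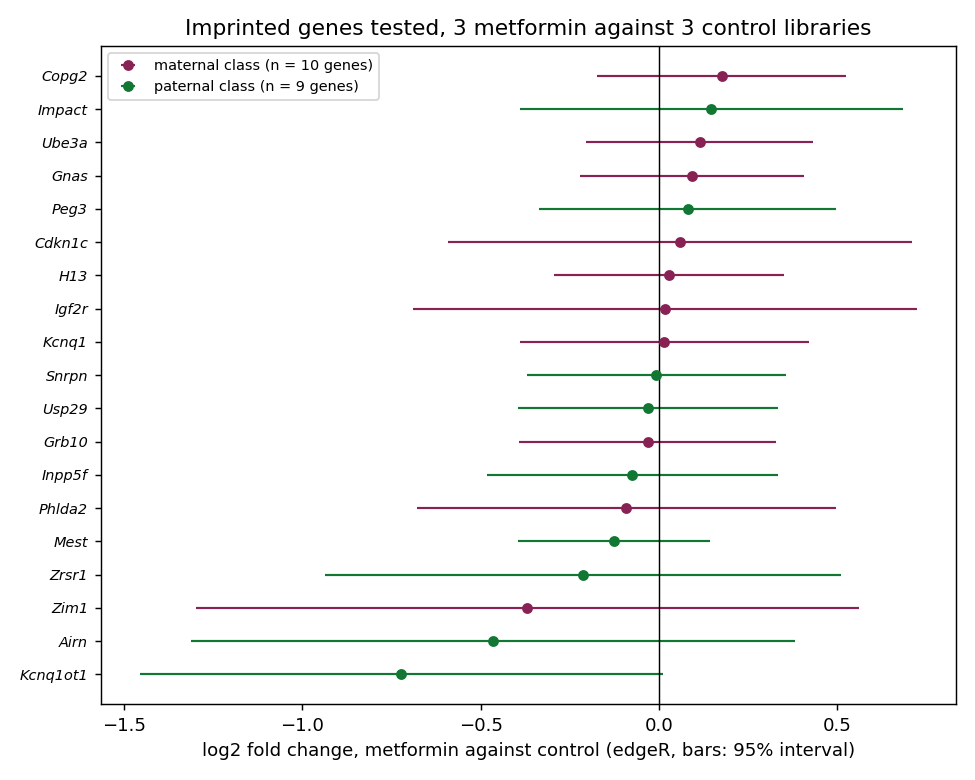
Fitted log2 fold change of metformin against control with its 95% interval for the 19 tested imprinted genes, ordered by size and coloured by parental class; the vertical line marks 0. Every interval includes 0, the largest fitted difference being that of Kcnq1ot1 at -0.72.

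One member, Kcnq1ot1, had no overlap between groups, 1 of 19 members, where 5.63% of all genes tested had none (2.84% higher and 2.79% lower). Kcnq1ot1 is the paternal-class RNA that silences its neighbours in the Kcnq1 cluster on the paternal chromosome (ENSMUSG00000101609, GRCm38 chromosome 7, 143203458 to 143296549, minus strand). It had 20, 24 and 40 counts in control replicates 1 to 3 and 20, 16 and 19 counts in metformin replicates 1 to 3. On TMM-scaled library sizes it stood at 2.10, 2.71 and 4.13 CPM in the control group, and at 1.90, 1.57 and 1.94 CPM with metformin. Control replicate 3 stood apart at the top, while control replicate 1 lay just above metformin replicate 3. The log2 fold change was -0.72 (SE 0.336, 95% interval -1.46 to 0.01, unadjusted p = 0.0533, edgeR adjusted p = 1.00). Without control replicate 3 it was -0.41.

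The Kcnq1ot1 gene lies wholly within Kcnq1 on the other strand, and the library kit keeps no strand, so its reads cannot be told apart from unspliced Kcnq1 RNA. Summed with Kcnq1 and the small RNA genes inside it, the log2 fold change was -0.06 (SE 0.184). Kcnq1 itself (chromosome 7, 143106362 to 143427042, plus strand) stood at 20.4, 19.4 and 22.7 CPM in the control group, and at 24.9, 17.98 and 20.4 CPM with metformin. The groups overlapped, with metformin replicate 1 the highest library and metformin replicate 2 the lowest, and the log2 fold change was 0.02 (SE 0.185).

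The other 2 tested members of that cluster act as brakes on growth. Phlda2 (minus strand of chromosome 7, 143501545 to 143503150) stood at 14.9, 18.8 and 26.8 CPM in the control group, and at 12.7, 22.8 and 21.3 CPM with metformin. Replicate 1 was the lowest library of each group, and the spread within groups exceeded the distance between their means, 20.2 ± 6.03 and 18.9 ± 5.42 CPM (SD, n = 3). Cdkn1c, the CDK inhibitor p57, had 31, 37 and 24 counts in control and 45, 30 and 30 counts in metformin libraries, again with overlap.

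The Igf2r-Airn cluster on chromosome 17 pairs a receptor that clears IGF2 with the antisense RNA that silences it on the paternal chromosome. Igf2r (minus strand, 12682406 to 12769664) stood at 15.9, 16.6 and 12.9 CPM in the control group, and at 22.2, 15.7 and 7.98 CPM with metformin. The 2 extreme values over all libraries were both from the metformin group, whose mean of 15.3 ± 7.10 CPM lay beside 15.1 ± 1.96 CPM in control (SD, n = 3). The log2 fold change was 0.02 with a 95% interval of -0.69 to 0.72.

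Airn (12741311 to 12860136, plus strand) had 18, 23 and 28 counts in control and 18, 10 and 26 counts in metformin libraries. Metformin replicate 2 was lowest at 0.982 CPM and control replicate 3 highest at 2.89 CPM, and the other 4 libraries of both groups lay between them. Its log2 fold change was -0.47 (SE 0.387, unadjusted p = 0.253, edgeR adjusted p = 1.00). Without metformin replicate 2 it was -0.17, and without metformin replicate 3 it was -0.86. The exons of Airn and Igf2r do not overlap, though the Airn gene starts within Igf2r. As the kit keeps no strand, Airn reads from the stretch inside Igf2r cannot be told apart from unspliced Igf2r RNA.

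**Figure D4:**
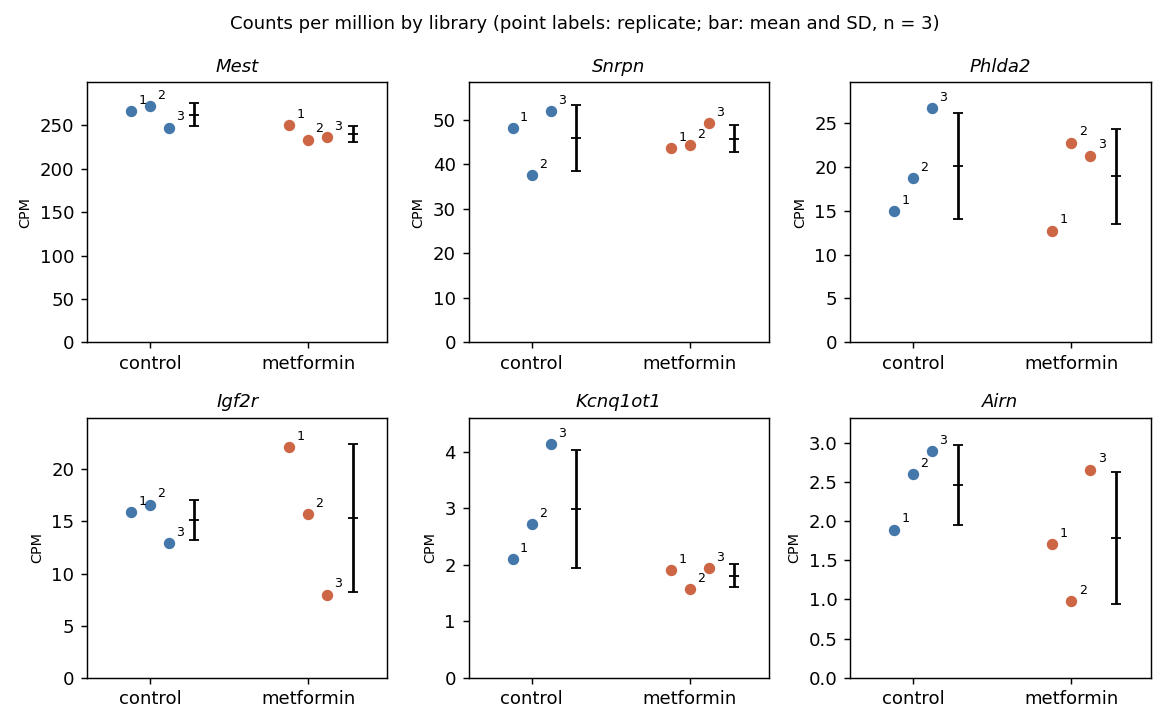
CPM on TMM-scaled library sizes in each library (points, numbered by replicate) with the mean and SD of 3 libraries (black) for 6 imprinted genes, control in blue and metformin in orange; every axis starts at 0. The groups overlap in each panel except that of Kcnq1ot1, where control replicates run from 2.10 to 4.13 CPM and metformin replicates from 1.57 to 1.94 CPM.

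Mest, the most abundant member (ENSMUSG00000051855, chromosome 6, 30723547 to 30748465, plus strand), stood at 267, 272 and 247 CPM in the control group, and at 250, 234 and 237 CPM with metformin. Metformin replicate 1 exceeded control replicate 3, so the groups overlapped. The log2 fold change was -0.13 (SE 0.123, 95% interval -0.39 to 0.14, unadjusted p = 0.325, edgeR adjusted p = 1.00). The vesicle-coat gene Copg2, whose exons on the other strand cover 23.1% of those of Mest, stood at 50.9, 57.8 and 66.7 CPM in the control group, and at 62.6, 74.0 and 61.7 CPM with metformin. Its highest library was metformin replicate 2 and its lowest control replicate 1, and the log2 fold change was 0.18 (SE 0.159, edgeR adjusted p = 1.00). Because reads over the shared exons cannot be assigned by strand, the pair was also summed, and the sum had a log2 fold change of -0.07 (SE 0.120).

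In the Snrpn cluster on chromosome 7, Snrpn stood at 48.2, 37.7 and 52.0 CPM in the control group, and at 43.7, 44.3 and 49.2 CPM with metformin. The extremes were both control libraries, and all metformin values lay between them. Its log2 fold change was -0.01 (95% interval -0.37 to 0.36). Snrpn shares exon bases with Snurf, the reading frame of the same transcript, and with Gm38393. Snurf had 22, 32 and 39 counts in control and 34, 33 and 2 counts in metformin libraries, so metformin replicate 3 was far below the rest, while Snrpn was not low there.

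Ube3a, the ubiquitin ligase gene whose maternal copy is lost in Angelman syndrome, stood at 150, 194 and 201 CPM in the control group, and at 210, 188 and 191 CPM with metformin. Control replicate 1 was the lowest, and the other 5 libraries lay between 188 and 210 CPM. The antisense RNA Snhg14, which silences Ube3a in neurons, had 38 to 70 counts per library, and Ube3a had 1425 to 2210. Per length they stood at 0.199 and 9.14 RPKM. Exons of Snhg14 cover 8.74% of those of Ube3a, and reads over the shared bases cannot be assigned by strand.

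The Peg3 cluster holds genes on both sides of a shared control region. Peg3, a zinc-finger gene, and Usp29, a deubiquitinase-family gene, start 147 bases apart on opposite strands, and both were present, in contrast to the divergent pair Peg10 and Sgce. Peg3 stood at 15.6, 15.6 and 16.6 CPM in the control group, and at 17.7, 19.2 and 13.7 CPM with metformin, with the control values inside the metformin range. Usp29 stood at 36.8, 43.4 and 38.6 CPM in the control group, and at 45.4, 35.2 and 35.8 CPM with metformin, and metformin libraries were again at both ends. Their log2 fold changes were 0.08 (SE 0.190) and -0.03 (SE 0.167).

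Gnas, which encodes the stimulatory G protein alpha subunit that holds cAMP high in arrested oocytes, stood at 128, 138 and 110 CPM in the control group, and at 148, 128 and 125 CPM with metformin. The ranges overlapped, and its log2 fold change was 0.09 (SE 0.144). It was 0.0077 without control replicate 3, 0.013 without metformin replicate 1 and 0.17 without control replicate 2. Several starts of the Gnas cluster are counted in this 1 gene and were not separated. The growth factor receptor adaptor Grb10 stood at 33.3, 28.2 and 35.95 CPM in the control group, and at 32.3, 33.6 and 29.5 CPM with metformin, all metformin values within the control range. H13 stood at 38.3, 39.1 and 42.0 CPM in the control group, and at 42.2, 39.7 and 40.0 CPM with metformin.

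Inpp5f, a phosphoinositide phosphatase gene with an imprinted brain transcript, stood at 25.0, 26.0 and 20.7 CPM in the control group, and at 23.4, 25.8 and 18.8 CPM with metformin. Replicate 3 was the lowest library of each group, and the log2 fold change was -0.07 (SE 0.187). Impact, a translation regulator gene, had 69, 80 and 50 counts in control and 79, 87 and 75 counts in metformin libraries. The retrogene Zrsr1, inside Commd1 on the other strand, had 61, 30 and 36 counts in control and 55, 28 and 36 counts in metformin libraries. It aligned to its parent Zrsr2 at 80.4% identity over 1123 bases, and 9.17% of its exon bases lie in exons of Commd1. Replicate 1 was the highest library of each group for Zrsr1, and the groups overlapped for both genes.

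The median coefficient of variation over the 6 libraries was 12.6% for the 19 tested members and 18.8% for all tested genes. The sets were not matched for level, so the values do not compare genes at like counts. A mean of at least 10 CPM was reached by 13 members and by 6663 of all genes. Metformin replicate 1 was the highest library for 7 of 19 members, against 20.9% of all genes, and metformin replicate 3 for 0 of 19, against 21.3%. The summed maternal class stood at 498 ± 36.5 CPM in the control group and 528 ± 29.5 CPM with metformin, and the summed paternal class at 406 ± 11.9 and 382 ± 14.8 CPM (SD, n = 3). The maternal sums, 456, 517 and 522 CPM against 560, 524 and 502 CPM, overlapped. The paternal sums, 412, 415 and 393 CPM against 399, 374 and 373 CPM, overlapped too, with metformin replicate 1 above control replicate 3, and without Mest they were 144 ± 1.68 and 142 ± 6.42 CPM.

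Of 41 further genes of imprinted clusters, 17 were present, where 43.15% of all protein-coding genes and 20.25% of all genes were. The test reached 19 of them, with 12 fitted higher, 7 lower and 0 past the threshold by edgeR. There were 0 at an unadjusted p under 0.05 by edgeR, and 0 called by DESeq2. Per length the highest were the nucleosome assembly gene Nap1l4 at 92.3 RPKM, Blcap at 41.3 and the ubiquitin ligase adaptor gene Asb4 at 16.3 RPKM. There was no overlap between groups for 3 of the 19, beside 5.63% of all genes tested. Commd1 stood at 30.4 ± 3.59 CPM in the control group and 36.1 ± 2.99 CPM with metformin, the tyrosine hydroxylase gene Th at 39.3 ± 2.48 and 34.2 ± 2.21 CPM, and Trappc9 at 15.6 ± 0.818 and 12.9 ± 0.583 CPM (SD, n = 3). None of these 3 passed (edgeR adjusted p = 1.00). The X-inactivation RNA Xist had 1 to 3 reads per library.

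Among 15 factors that set or keep imprints, all were tested, 6 were fitted higher, 9 lower and 0 passed by edgeR (0 at an unadjusted p under 0.05, and 0 by DESeq2). The most abundant per length were Dppa3, which shields the maternal genome from demethylation, the maintenance methyltransferase gene Dnmt1 and the Polycomb gene Ezh2. Dnmt1 stood at 1599 ± 288 CPM in the control group and 1635 ± 221 CPM with metformin, and Ezh2 at 639 ± 25.6 and 673 ± 25.0 CPM (SD, n = 3). One of the 15, Ehmt2, a histone H3 lysine methyltransferase gene, had no overlap between groups, beside 5.63% of all genes tested. Its level was low, 0.924 ± 0.130 and 1.57 ± 0.371 CPM, and its log2 fold change was 0.76 (SE 0.389, edgeR adjusted p = 1.00).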

How the data were processed

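RNA was sequenced from 6 oocyte libraries, 3 per group, built with the SMART-Seq HT kit per the labels' protocols. That kit primes on poly(A) tails and keeps neither strand nor molecular identifiers. CASAVA 1.8, TopHat2 2.0.6 and mm10 are named in the submitters' processing notes. How reads were counted, with which annotation and with what rule for repeats: not given in the sources used here. Per-gene values were deposited by the authors as raw counts and FPKM, per the file headers. Counts were used as deposited, on 55487 genes, and deposited FPKM values entered no test. Levels between genes were to be compared in FPKM; since the lengths behind these values sum overlapping exons, RPKM over merged GENCODE M21 exons (GRCm38) was used instead.

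Each column was assigned to a sample through its title. Groups were compared with the quasi-likelihood test of edgeR 4.0.16 in R 4.3.3, with robust fitting, TMM scaling, filterByExpr (minimum count 10) and no covariate, at an adjusted p of 0.05. It was tested on simulated data. The SE is the log2 fold change divided by the square root of the F statistic. CPM values use TMM-scaled library sizes. DESeq2 1.42.0 was an alternative. The members, their classes and the lists were chosen with earlier results of these data known. Members with a mean of at least 10 CPM, a passing or non-overlapping result, or 1 of the 3 smallest p-values are given in every library, and some others as counts. PCR reads are not independent molecules, so floors cover counting error only. Whether the samples came from separate animals or pools is not in the labels, and the p-values thus reflect sample-to-sample spread that may be technical. Without a spike-in a change in total RNA would not be seen.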

Additional observations from a re-analysis of the deposited data

How the results depend on the processing

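Under every setting run, 0 of the tested members passed: RLE scaling, no filter, a mean of at least 10 CPM, DESeq2, the non-robust fit, the replicate block and each library left out. The same held for the further genes and factors, and the smallest adjusted p of a named member was 0.997. Over all genes the count was 5; it was 8 by DESeq2 and between 5 and 12 with 1 library left out. At least 1 deposited FPKM gave 11 present members (30.56%, beside 28.26% of protein-coding genes) in place of 18 (50.0%, beside 43.15%). At least 3 counts gave 19 (52.78%, beside 50.53%). At least 1 RPKM, added after seeing the data, gave 12 (33.33%, beside 31.51%).

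Fitted differences near 0 changed sign. With 1 library left out, log2 fold changes ran from -0.12 to 0.049 for Grb10, -0.0013 to 0.072 for H13, -0.35 to 0.32 for Igf2r, -0.18 to 0.043 for Inpp5f, -0.12 to 0.12 for Kcnq1, -0.021 to 0.21 for Peg3, -0.27 to 0.17 for Phlda2, -0.13 to 0.092 for Snrpn, -0.0091 to 0.19 for Ube3a and -0.16 to 0.039 for Usp29. Igf2r stood at -0.35 without metformin replicate 1. Summed with overlapping genes, Copg2 was at -0.066 and Kcnq1 at -0.058. That sum holds a second gene by construction; the cause of the other reversals was not tested. Airn ran from -0.86 to -0.17, Copg2 from 0.08 to 0.28, Gnas from 0.0077 to 0.17 and Mest from -0.17 to -0.10. Kcnq1ot1 ran from -0.92 to -0.41 with 1 library left out and stayed below 0 in every setting run on its own counts. Its sum with Kcnq1, at -0.058 (SE 0.184), holds 1230 reads of Kcnq1 beside 139 of Kcnq1ot1. The sign of that sum therefore says little about Kcnq1ot1.

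Replicate numbers are shared between the groups, but deviations of same-numbered libraries correlated at 0.144, 0.0441 and 0.200 for numbers 1, 2 and 3, not above 0.1 in each pair, so the numbers were not taken as pairs. Each library correlated best with its own number. With the replicate block 7 genes were called and 296 had an unadjusted p under 0.05 by edgeR, beside 5 and 192 without the block. Of the 19 members, 0 had an unadjusted p under 0.05 with the block. Igf2r was then at -0.077 and Snrpn at 0.0040. For Kcnq1ot1 and Airn, with 10 to 40 counts per library, intervals reached beyond a log2 fold change of -1. That of Cdkn1c, with 24 to 45 counts, ran from -0.59 to 0.71.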
